A study of Danio rerio with 6 samples.

Results

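Groups of skin cells that carry the same fluorescent marks and differ in genotype were compared by bulk RNA sequencing after sorting, in adult zebrafish 3 months of age. The first is the GFP+DsRed- population of csf1rDM fish, homozygous for csf1ra j4e1 and csf1rb sa1503, and the second is the GFP+DsRed- population of wild-type control fish. Both genotypes were untreated and carried the transgenes mpeg1-EGFP, Kdrl:Cre and act2b:loxP-STOP-loxP-DsRedexpress. Of 6 libraries, 4 belong to these groups, with 2 per genotype: csf1rDM replicates 2 and 3, and control replicates 1 and 2. The remaining 2 libraries, control GFP+DsRed+ cells, entered the statistical fit and are given only as context. Of 32520 genes in the table, 19555 reached at least 1 CPM (the signal of a gene as a share of the library total, on a common scale) in 2 or more of the 4 libraries, and these genes are the ones described.

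The mpeg1 promoter is active in macrophages and in metaphocytes, an epithelium-derived skin population that resembles macrophages. Cre under kdrl acts in endothelium, from which blood cells arise, and the resulting DsRed label passes to all descendants. Cells without DsRed thus carry no mark of blood origin, which is a statement on the label and not on each cell. The colony stimulating factor 1 receptor is a tyrosine kinase that macrophages need to survive and divide, and zebrafish have it as csf1ra and csf1rb. In zebrafish csf1ra is also known for its part in the formation of xanthophores, the yellow pigment cells of the skin. Xanthophores colour themselves with pteridines and carotenoids, melanophores with melanin and iridophores with purine crystals, and all arise from the neural crest. The sources used here do not say how many fish gave each library, so p-values measure the spread between these samples, which may be technical.

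The libraries of csf1rDM cells were the shallowest, with 5072637 and 4024247 gene-assigned reads (replicates 2 and 3), against 11363542 and 10448029 in the control libraries. Depth and genotype therefore cannot be told apart by design, and 1 read was worth 0.197 and 0.248 CPM in csf1rDM libraries but 0.088 and 0.0957 CPM in control libraries. Mitochondrial transcripts took between 1.73% and 2.74% of the signal in all 6 libraries, and ribosomal protein genes between 2.05% and 2.66%. In a principal component analysis of the 4 libraries, component 1 held 68.2% of the variance and separated the genotypes. Component 2, with 21.1%, set csf1rDM replicate 2 (score -47.2) apart from csf1rDM replicate 3 (35.7), while control libraries lay together at 4.79 and 6.77. Component 3, with 10.8%, set control replicate 1 (-31.5) apart from control replicate 2 (28.8), while csf1rDM libraries lay at 1.73 and 1.06. Because the csf1rDM replicates differed more from each other than the control replicates did, each csf1rDM library is given separately throughout.

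The mutated genes were examined first. Transcripts of csf1ra stood at 1.4 and 2.25 CPM in csf1rDM replicates 2 and 3, against 102 and 86.9 CPM in control replicates 1 and 2. Both csf1rDM libraries were thus far below both control libraries, and the mean was 51.8-fold lower (log2 fold change -4.95 ± 0.19 SE, limma adjusted p = 0.000137). No read of csf1rb was found in either csf1rDM library, against 0.55 and 0.60 CPM in the control libraries, which is also below the level of 3 reads in the shallowest library (0.745 CPM). No difference in csf1rb could be detected at such depth (limma log2 fold change -0.61 ± 0.27, adjusted p = 0.2), and csf1rb did not reach the level needed to be counted among the 19555 genes. The j4e1 and sa1503 alleles themselves cannot be read from a table of gene totals. Since a mutated allele is inherited with the genes around it, the 25 nearest tested genes on each side were looked up in RefSeq's gene order, in which 14834 of 20382 tested genes could be placed. Of 50 neighbours of csf1ra, 4 had an adjusted p below 0.05 (dhrs13l1, slc25a51b, gnpda2 and bscl2l), and 4 of 50 neighbours of csf1rb did, against 6.51% of all genes tested.

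The sorted population was then checked against marker genes. The reporter's own gene mpeg1.1 was found at 127 and 98.2 CPM in csf1rDM cells and 150.3 and 64.4 CPM in control cells. These groups overlapped (limma log2 fold change 0.33 ± 0.35, adjusted p = 0.594). In GFP+DsRed+ libraries mpeg1.1 stood at 1196 and 1579 CPM. Its paralog mpeg1.2 had 63.7 and 151 CPM in csf1rDM cells, against 61.3 and 39.3 CPM in control cells (1.13 ± 0.41, adjusted p = 0.138), a difference that passed by DESeq2 and without csf1rDM replicate 2, and the 2 paralogs may share reads. The leukocyte gene ptprc, which encodes the CD45 phosphatase, was low in both genotypes, with 15 and 10.7 CPM in csf1rDM cells and 20.2 and 13.2 CPM in control cells, while GFP+DsRed+ libraries held 571 and 785 CPM. Summed over 23 macrophage genes, csf1rDM libraries held 2067 and 1740 CPM, control libraries 2045 and 1567 CPM, while 9081 and 9888 CPM were measured in GFP+DsRed+ cells. Only 2 of these 23 genes passed an adjusted p of 0.05 by limma, both lower in csf1rDM cells (3.27% of all genes tested were lower). They were the transcription factor mafbb (0.20 and 1.0 CPM in csf1rDM cells, against 5.05 and 3.85 CPM in control cells, adjusted p = 0.0232) and the haem oxygenase hmox1a (9.5 and 10.9 CPM in csf1rDM cells, against 33.2 and 22.2 CPM in control cells, adjusted p = 0.0249). Neither call was kept when either control library was left out. Of the 23 genes, 6 had an unadjusted limma p below 0.05. By edgeR's quasi-likelihood test 0 were higher and 2 lower, and by DESeq2 2 were higher and 2 lower.

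Genes of the epithelial state were abundant in both genotypes. The adhesion gene cdh1, which encodes E-cadherin, had 1636 and 1686 CPM in csf1rDM cells and 1414 and 1447 CPM in control cells (log2 fold change 0.37 ± 0.17, adjusted p = 0.225), and the adhesion gene epcam had 1592 and 1665 CPM in csf1rDM cells and 1354 and 1426 CPM in control cells (adjusted p = 0.219). Among 18 genes of epithelial junctions, only cldna and cldn7b, both coding for claudins of tight junctions, passed an adjusted p of 0.05, and both were higher (3.24% of all genes tested were). Claudin gene cldna stood at 997 and 1013 CPM in csf1rDM cells, against 477 and 578 CPM in control cells (1.09 ± 0.21, adjusted p = 0.032), but both claudin calls were lost whichever of the 4 libraries was left out. The list's median log2 fold change was 0.36, beside -0.04 over all 19555 genes, and 16 of the 18 were positive in sign. Of the 18, 6 had an unadjusted limma p below 0.05. By edgeR's quasi-likelihood test 1 passed and by DESeq2 6, all higher. None of 19 keratinocyte genes and none of 9 granulin and metaphocyte genes passed limma's test (2 and 3 had an unadjusted p below 0.05). By edgeR's quasi-likelihood test 0 of either list passed, and by DESeq2 0 and 1. Among them grn2, the most abundant granulin gene here, had 621 and 702 CPM in csf1rDM cells and 634 and 311 CPM in control cells, with control replicate 2 the lowest.

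Across all genes, 1326 of the 19555 had an adjusted p below 0.05 by limma, of which 661 were higher and 665 lower in csf1rDM cells. Over all 20382 genes tested the same threshold called 6.51%, or 3.24% higher and 3.27% lower. A stricter threshold, an adjusted p below 0.05 together with a log2 fold change beyond 2, was passed by 317 genes (1.56% of all tested), 112 higher (0.550%) and 205 lower (1.01%). For each of the 317, both csf1rDM libraries lay on one side of both control libraries in unscaled CPM. Over all genes tested they lay above for 19.3% and below for 38.7%. Without composition scaling the median log2 fold change over the 19555 genes was -0.18, against -0.04 with it, and these shares include that shift. Taken singly, csf1rDM replicate 2 was beyond 2 on the log2 scale above the control mean for 126 genes and below it for 261, and csf1rDM replicate 3 for 229 and 393. Both libraries were beyond 2 for 87 genes above and 168 below, and no gene was beyond 2 in opposite directions. The count of 317 was 537 without csf1rDM replicate 2, 175 without control replicate 1 and 116 without control replicate 2, and 325 when all libraries were thinned to the depth of the shallowest. Of the 317 genes, 67 higher and 88 lower ones carry only the name of a clone or locus and are not named here.

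**Figure D1:**
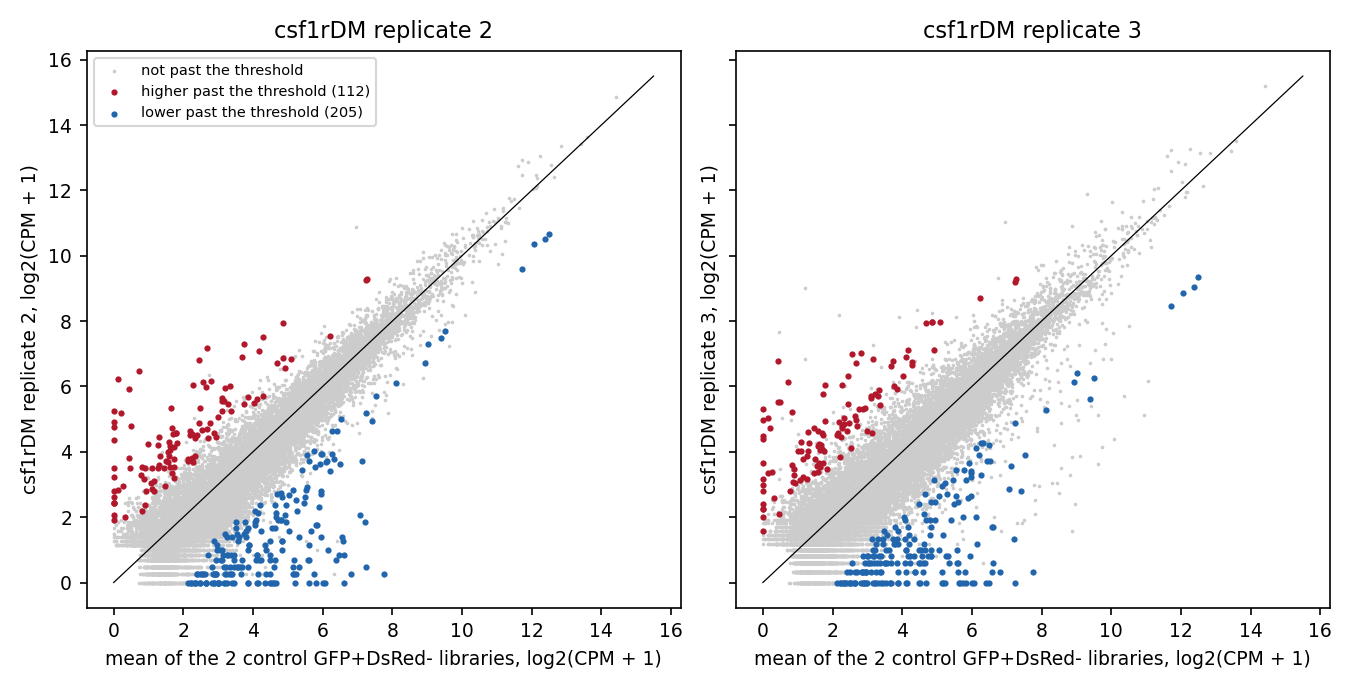
Each csf1rDM library (vertical axis, log2(CPM + 1) before scaling) against the mean of both control GFP+DsRed- libraries (horizontal axis, same unit), 1 point per gene for 19555 genes, with the line of equal level. Red points are the 112 genes higher and blue points the 205 genes lower past the threshold. The cloud is wider for csf1rDM replicate 3. Some of its grey points far below the line, such as cyp8b2, are genes that replicate 2 held near the control level. Others, such as cyp7a1, were low in both, with log2 differences of -2.39 in replicate 2 and -7.08 in replicate 3.

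Xanthophore genes fell strongly in csf1rDM cells and had the lowest median of all lists examined. Of 13 xanthophore genes, 12 were lower past an adjusted p of 0.05 (3.27% of all genes were), all 12 also past the fold threshold, and the median log2 fold change was -4.95, also with the 4 members that had no csf1rDM read set at their bound. Summed over the list, csf1rDM libraries held 31.5 and 18.9 CPM, against 832 and 745 CPM in control GFP+DsRed- cells, whereas GFP+DsRed+ cells held 81.6 and 108 CPM. Most of the lower members, such as xdh, bscl2l and pax7b, could not have passed the filter without the control libraries. The count and the median therefore depend in part on the filter. The study itself describes pigment cell genes in a comparison of these libraries, so the list is not independent evidence of its direction. In bulk samples, fewer cells of a type and less RNA per cell cannot be told apart.

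Among genes of the pteridine pathway, gch2, the GTP cyclohydrolase that starts it, had 1.6 and 0.25 CPM in csf1rDM cells, against 113 and 74.1 CPM in control cells (log2 fold change -5.55 ± 0.41, adjusted p = 0.00125). Xanthine dehydrogenase gene xdh had no read in csf1rDM cells and 20.9 and 23.1 CPM in control cells, so that it was at least 29.5-fold lower (-4.40 ± 0.26, adjusted p = 0.00051). The aldehyde oxidase gene aox5, a common marker of xanthophores, had 0.999 and 1.25 CPM in csf1rDM cells, against 77 and 63.9 CPM in control cells, a 62.7-fold lower mean (-4.93 ± 0.23, adjusted p = 0.000282). All 3 genes were near or at the detection limit in both csf1rDM libraries. Only pts, the 6-pyruvoyltetrahydropterin synthase gene, which other cells also use, did not pass, with 5.35 and 2.5 CPM in csf1rDM cells and 11.7 and 8.45 CPM in control cells (-1.08 ± 0.35, adjusted p = 0.104).

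Genes that handle carotenoids and lipid droplets were low as well. The scavenger receptor gene scarb1, needed for carotenoid uptake by xanthophores, kept a measurable level in csf1rDM cells, at 12.2 and 10.9 CPM, against 143 and 135 CPM in control cells (12-fold lower, -3.32 ± 0.21, adjusted p = 0.00073). The carotenoid-cleaving oxygenase gene bco2b, not on the list but among the 15 lower genes with the smallest adjusted p, stood at 2.6 and 1.5 CPM in csf1rDM cells, against 124 and 171 CPM in control cells (71.9-fold lower, -5.47 ± 0.28, adjusted p = 0.000364). For plin6, a perilipin that coats droplets in fish pigment cells, 3 reads were found in csf1rDM libraries (0.60 and 0 CPM), against 83.6 and 82.8 CPM in control cells. That is a ratio of 252 in pooled reads, with a 95% exact counting interval from 86.2 to 1225. The seipin-like gene bscl2l, one of the neighbours of csf1ra listed above, had no csf1rDM read, against 66.5 and 59.5 CPM in control cells, and was at least 84.5-fold lower (-5.88 ± 0.25, adjusted p = 0.000204).

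Transporters and regulators of the same cells followed. The sugar transporter family genes slc2a11b and slc2a15a and the organic anion transporter gene slc22a7a had between 33.9 and 119 CPM in control libraries. In csf1rDM libraries slc2a11b had 0.20 and 0.25 CPM, which is 2 reads and a pooled ratio of 506 (95% interval 140 to 4181), with an adjusted p of 0.000137. The other transporters had no read there, so that slc2a15a was at least 48.5-fold and slc22a7a at least 64.5-fold lower. Of the transcription factors, pax7b had 0.60 and 0.25 CPM in csf1rDM cells, against 54.1 and 40.7 CPM in control cells (-4.95 ± 0.27, adjusted p = 0.000463). Its paralog pax7a had 0 and 0.75 CPM in csf1rDM cells and 21.9 and 23.7 CPM in control cells (-4.05 ± 0.34, adjusted p = 0.00226), with 3 csf1rDM reads and a pooled ratio of 69.1 (95% interval 23.5 to 336). The factor gene sox5 kept 9.9 and 2.75 CPM in csf1rDM cells, against 43.3 and 39.8 CPM in control cells (-2.59 ± 0.46, adjusted p = 0.0278). Each of the 12 calls was kept when a csf1rDM library was left out, and 11 of 12 when control replicate 1 or control replicate 2 was.

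Outside the pigment cell lists, the 15 lower genes with the smallest adjusted p also included fgfr1bl, trpv1 and mc5ra. The gene fgfr1bl, annotated as an FGF receptor, had no read in csf1rDM cells, against 78.1 and 53.4 CPM in control cells, and was at least 88.2-fold lower (-5.92 ± 0.24, adjusted p = 0.000168). Of the other FGF receptor genes only fgfrl1a passed, with 0.20 and 0 CPM in csf1rDM cells and 5.4 and 3.85 CPM in control cells (adjusted p = 0.00756), a call that was not kept without either control library. Of all genes tested 3.27% were lower past an adjusted p of 0.05. The melanocortin receptor gene mc5ra had no read in csf1rDM cells, against 18.2 and 15.1 CPM in control cells. It was at least 22.4-fold lower (limma adjusted p = 0.00069). The cation channel gene trpv1 stood out from these by its level in GFP+DsRed+ libraries (282 and 265 CPM). It had 2.6 and 2.75 CPM in csf1rDM cells, against 32.1 and 27.4 CPM in control GFP+DsRed- cells, an 11.1-fold lower mean (-2.92 ± 0.17, adjusted p = 0.00051). This order of levels was shared with csf1ra, at 1081 and 1124 CPM in GFP+DsRed+ libraries, and with 32 of the 205 lower genes in all, whose GFP+DsRed+ mean was above the control GFP+DsRed- mean. All 15 of these lower genes kept their sign whichever of the 4 libraries was left out. They were chosen by adjusted p in these same libraries, so this is no independent support.

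Many melanophore genes were lower too. The list summed to 256 and 257 CPM in csf1rDM libraries, against 408 and 379 CPM in control GFP+DsRed- cells. In GFP+DsRed+ cells the sum was highest, at 873 and 947 CPM, unlike that of the xanthophore list. Of 22 melanophore genes listed, 21 were in the table and 17 reached 1 CPM in 2 or more of the 4 libraries. Of these 17 members, 10 were lower and 1 was higher past an adjusted p of 0.05, with a median log2 fold change of -1.88. Some lower members, such as mc1r, tyr and mitfa, could not have passed that filter without the control libraries. The count and the median therefore depend in part on the filter. Of all genes tested 3.27% were lower and 3.24% higher. The melanocortin receptor gene mc1r had no read in csf1rDM cells, against 7.94 and 8.05 CPM in control cells, and was at least 10.7-fold lower (-3.06 ± 0.24, adjusted p = 0.00172). The gene tyr, which encodes tyrosinase of melanin synthesis, had 0.80 and 1.0 CPM in csf1rDM cells, against 16.6 and 16.1 CPM in control cells (-3.07 ± 0.26, adjusted p = 0.00247). For mitfa, the transcription factor that specifies melanophores, 1 read was found in csf1rDM libraries (0.20 and 0 CPM), against 5.65 and 4.7 CPM in control cells (-2.38 ± 0.27, adjusted p = 0.00722), a pooled ratio of 47.1 (95% interval 8.29 to 1878).

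Genes for moving melanosomes along actin were among the lower members with the highest control levels. Melanophilin gene mlpha stood at 2.0 and 0 CPM in csf1rDM cells, against 53.9 and 45.7 CPM in control cells (-4.74 ± 0.49, adjusted p = 0.00502), and its motor myo5aa at 11.2 and 17.4 CPM in csf1rDM cells, against 96.3 and 82.4 CPM in control cells (-2.44 ± 0.24, adjusted p = 0.00433). The channel gene trpm1b, the melanosomal receptor gene gpr143, the transcription factor gene tfap2e and the transporter genes slc45a2 and slc24a5 were the other lower members, with log2 fold changes between -2.98 and -1.56. Only kita, the kit receptor gene, was higher past an adjusted p of 0.05 by limma. It had 52.8 and 72.8 CPM in csf1rDM cells, against 25.3 and 30.8 CPM in control cells (1.27 ± 0.23, adjusted p = 0.0268). Of the 17 members, 5 had a positive log2 fold change, and DESeq2 called 2 higher. Other melanin genes did not pass: tyrp1a had 4.95 and 8.45 CPM in csf1rDM cells and 5.05 and 3.3 CPM in control cells, with an adjusted p of 0.268. For pmela the levels were 2.2 and 1.75 CPM in csf1rDM cells and 3.2 and 9.09 CPM in control cells (adjusted p = 0.199). The count of 10 lower members was 6 without control replicate 1 and 6 without control replicate 2, and the call of kita was lost without csf1rDM replicate 3, without either control library and in a fit of the 4 libraries alone.

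Of 11 iridophore genes listed, 9 reached 1 CPM in 2 or more of the 4 libraries. Of these 9, 3 were lower past an adjusted p of 0.05 (3.27% of all genes tested were), with a median of -0.56. The 3 could not have passed that filter without the control libraries, so the count and the median depend in part on it. The endothelin receptor gene ednrba had 0.40 and 0.25 CPM in csf1rDM cells, against 36.1 and 33.1 CPM in control cells (-4.62 ± 0.33, adjusted p = 0.00119), where 3 csf1rDM reads gave a pooled ratio of 105 (95% interval 35.8 to 511). The purine nucleoside phosphorylase gene pnp4a, a common iridophore marker, had 0.80 and 1.25 CPM in csf1rDM cells, against 8.44 and 8.55 CPM in control cells (-2.12 ± 0.27, adjusted p = 0.0103), and gpnmb had 0.80 and 1.0 CPM in csf1rDM cells, against 7.94 and 5.5 CPM in control cells (adjusted p = 0.0222). The receptor gene ltk and the homeobox genes alx4a and alx4b, all used by iridophores, did not pass (adjusted p between 0.368 and 0.773). The count of 3 was 1 without either control library. Of 10 genes of purine synthesis, only hprt1 passed, lower in csf1rDM cells (18.7 and 17.6 CPM in csf1rDM cells, against 37.1 and 33.2 CPM in control cells, adjusted p = 0.0449), and the call was lost whichever of the 4 libraries was left out.

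Among 12 neural crest and Schwann cell genes, sox10, egr2b and pax3a were lower past an adjusted p of 0.05. Of all genes tested 3.27% were, and the list median was -0.83. The neural crest regulator sox10 had 3.4 and 2.25 CPM in csf1rDM cells, against 18.8 and 14.8 CPM in control cells (-2.09 ± 0.27, adjusted p = 0.0111), and egr2b, a regulator of myelinating Schwann cells, had 5.75 and 4.25 CPM in csf1rDM cells, against 28 and 22.7 CPM in control cells (-1.997 ± 0.23, adjusted p = 0.00784). The myelin genes mpz and mbpa did not pass. Levels of mpz were 8.3 and 8.95 CPM in csf1rDM cells and 9.54 and 12.3 CPM in control cells, and those of mbpa 5.95 and 4.0 CPM in csf1rDM cells and 6.0 and 8.94 CPM in control cells. The calls of sox10, egr2b and pax3a were lost without control replicate 1 and without control replicate 2. That of pax3a was also lost by edgeR's quasi-likelihood test, by DESeq2 and in a fit of the 4 libraries alone. There the calls of sox10 and egr2b were kept.

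**Figure D2:**
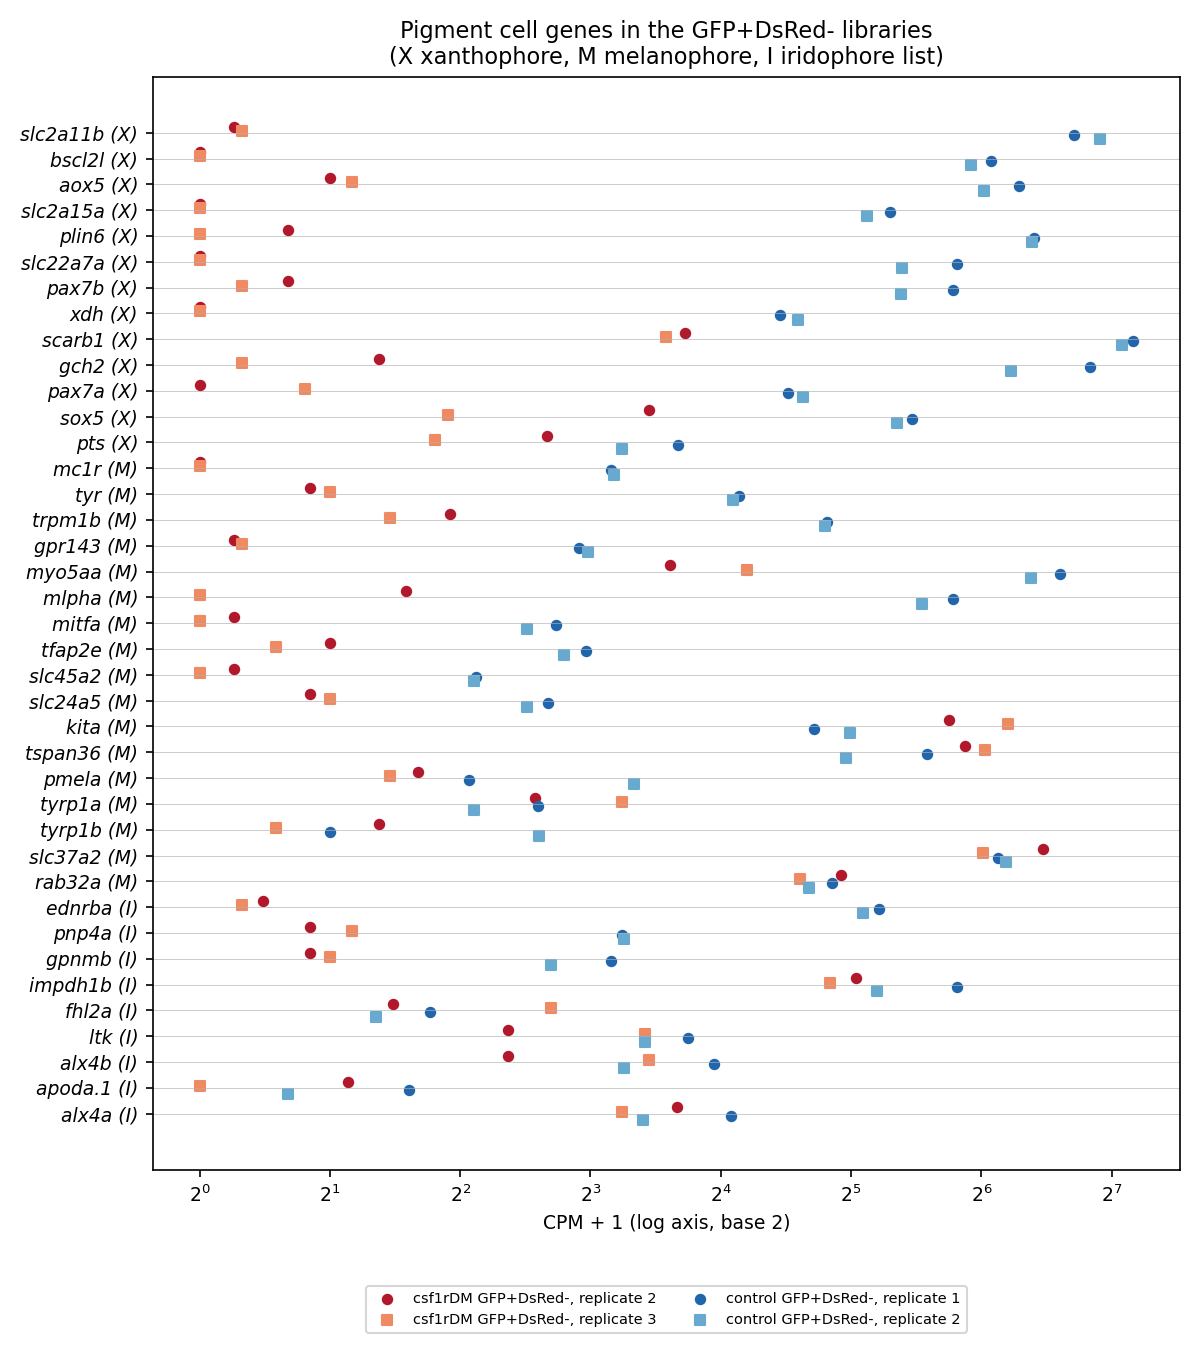
Level of each measured pigment cell gene (rows) in the 4 GFP+DsRed- libraries, as CPM + 1 on a log axis of base 2, with csf1rDM libraries in red and orange and control libraries in blue. Within each list genes are in order of adjusted p. For all 13 xanthophore genes and for 11 of 17 melanophore genes both csf1rDM points lie left of both control points, as they do for 38.7% of all genes tested.

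Among genes higher in csf1rDM cells, the most abundant of the 15 with the smallest adjusted p was tnfrsf11b, which encodes osteoprotegerin, a secreted decoy that keeps the osteoclast factor RANKL from its receptor. It had 608 and 589 CPM in csf1rDM cells, against 146 and 157 CPM in control cells, a 3.96-fold higher mean (2.13 ± 0.15, adjusted p = 0.00119), and both replicates of each genotype were close together. The acute phase gene saa, which encodes serum amyloid A, had 181 and 99.9 CPM in csf1rDM cells, against 18.2 and 18.8 CPM in control cells, a 7.59-fold higher mean (2.94 ± 0.29, adjusted p = 0.00447). The zinc finger gene znf1179 had 64.5 and 64.9 CPM in csf1rDM cells, against 4.25 and 3.45 CPM in control cells (16.8-fold higher, 3.89 ± 0.27, adjusted p = 0.00103).

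Others had few reads in control cells. Adhesion receptor gene adgrf11 had 35.5 and 25.3 CPM in csf1rDM cells, against 0 and 0.30 CPM in control cells, where 3 reads stood, giving a pooled ratio of 225 (95% interval 76.3 to 1099, adjusted p = 0.000582). A second receptor of that family, adgrf3b, had 21.1 and 23.4 CPM in csf1rDM cells, against 2.05 and 0.899 CPM in control cells (15.1-fold higher, adjusted p = 0.00275). For scospondin, known as the glycoprotein of the Reissner fibre, 74.3 and 32.1 CPM in csf1rDM cells stood against 2 reads in control cells, a pooled ratio of 607 (95% interval 167 to 5023, adjusted p = 0.00121). The csf1rDM libraries themselves differed here, with replicate 2 the higher for adgrf11 and scospondin. None of adgrf11, adgrf3b and scospondin could have reached 1 CPM in 2 of the 4 libraries without the csf1rDM libraries.

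The chemokine receptor gene ccr11.1 had 10.3 and 8.0 CPM in csf1rDM cells and no read in control cells, and was at least 31.9-fold higher (adjusted p = 0.00146). The transporter gene abcg4a, whose mammalian counterpart exports sterols, had 26.6 and 45 CPM in csf1rDM cells, against 0.0999 and 0.70 CPM in control cells (89.6-fold higher, adjusted p = 0.00151). The collagenase gene mmp13a had 17.3 and 13.7 CPM in csf1rDM cells, against 0.799 and 2.05 CPM in control cells (10.9-fold higher, adjusted p = 0.00727). All 3 genes were chosen for the separation of the genotypes, and their levels were modest. None of the 3 could have reached 1 CPM in 2 of the 4 libraries without the csf1rDM libraries.

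Of the remaining named genes, prg4b (lubricin), the thiamine transporter gene slc19a3a, the cytochrome P450 gene cyp2aa7 and the endosomal adaptor gene zfyve9b were between 6.46 and 9.0 times as high in csf1rDM as in control cells. The last pair, lim2.1 and bsx, had identical values in csf1rDM cells (10.6 and 11.7 CPM each) and similar ones in control cells (2.25 and 1.85 CPM for lim2.1 and 2.65 and 1.95 CPM for bsx), so that they may share reads and are uncertain. All 15 named higher genes kept their sign without csf1rDM replicate 2 or replicate 3, but they were chosen by adjusted p in these same libraries. The log2 difference of bsx from the control mean was 1.95 in csf1rDM replicate 2, short of the fold threshold of 2. Calls lost below were judged by adjusted p and sign, without the fold threshold. Without control replicate 1, lim2.1 and bsx were lost, and without control replicate 2 also slc19a3a, cyp2aa7 and zfyve9b.

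**Figure D3:**
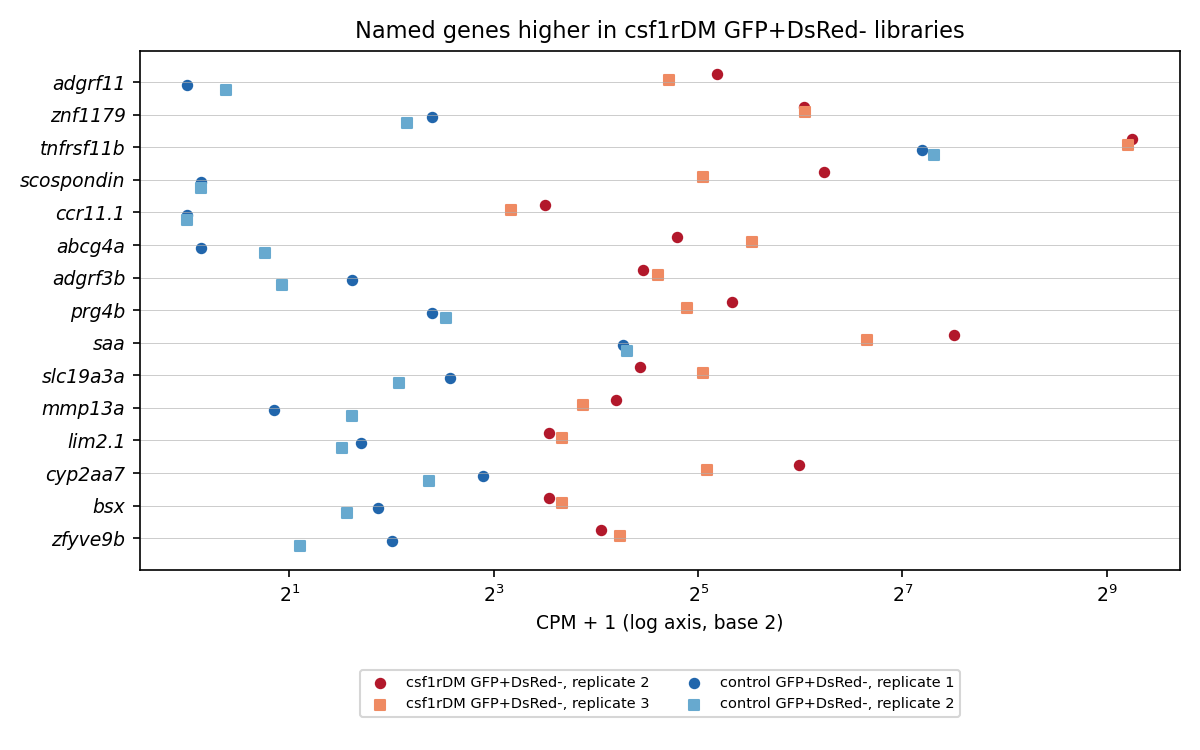
Level of the 15 named genes that were higher in csf1rDM cells (rows, in order of adjusted p) in the 4 GFP+DsRed- libraries, as CPM + 1 on a log axis of base 2. In every row the csf1rDM points (red and orange) lie right of the control points (blue). The genes were chosen for this separation.

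Lysosome genes were higher in csf1rDM cells by small amounts. Of 19 members, 9 were higher and none was lower past an adjusted p of 0.05 (3.24% of all genes were higher), with a median log2 fold change of 0.71. The aspartyl protease gene ctsd had 158 and 155 CPM in csf1rDM cells, against 68.6 and 62.6 CPM in control cells (1.39 ± 0.15, adjusted p = 0.00617). The cysteine protease gene ctsla had 333 and 364 CPM in csf1rDM cells, against 222 and 165 CPM in control cells (1.01 ± 0.17, adjusted p = 0.0245). The lysosomal membrane gene lamp1a had 54.2 and 50.7 CPM in csf1rDM cells, against 28.7 and 30.1 CPM in control cells (0.96 ± 0.17, adjusted p = 0.0253), and the cholesterol exporter gene npc1 had 225 and 304 CPM in csf1rDM cells, against 163 and 149 CPM in control cells (0.89 ± 0.17, adjusted p = 0.0343). The other higher members were the cathepsin genes ctsk, ctsc, ctsba and ctsz and the hexosaminidase gene hexb, with log2 fold changes between 0.71 and 1.14. No proton pump subunit of the list passed, nor did psap, the most abundant member (396 and 425 CPM in csf1rDM cells and 352 and 322 CPM in control cells). The count of 9 was 4 without scaling for composition, 1 without csf1rDM replicate 3, 1 without control replicate 1 and 0 without control replicate 2, while all 9 stayed higher in sign.

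Of 8 class II antigen presentation genes, 2 were higher and 1 was lower past an adjusted p of 0.05 by limma. Of all genes tested 3.24% were higher and 3.27% lower. Among the class II members 6 had a positive log2 fold change and 2 a negative one, with a median of 0.45. By edgeR's quasi-likelihood test 2 were higher and 1 lower, and by DESeq2 4 were higher and 1 lower. The class II chain gene mhc2dab had 67.2 and 37.8 CPM in csf1rDM cells, against 361 and 193 CPM in control cells (-2.21 ± 0.36, adjusted p = 0.0211), whereas the class II processing proteases ctss2.1 and ctss2.2 were higher. Of these, ctss2.1 had 66.8 and 93.2 CPM in csf1rDM cells, against 38.5 and 29.7 CPM in control cells (1.35 ± 0.20, adjusted p = 0.0152). The invariant chain genes cd74a and cd74b did not pass. Levels of cd74a were 1525 and 1475 CPM in csf1rDM cells and 1362 and 1200 CPM in control cells, and those of cd74b 945 and 925 CPM in csf1rDM cells and 727 and 723 CPM in control cells. The calls of mhc2dab, ctss2.1 and ctss2.2 were lost without control replicate 1 and without control replicate 2. The gene mhc2dab is one of several similar class II genes that may split reads, which makes its values uncertain. None of 8 class I genes passed an adjusted p of 0.05 by limma or by edgeR's quasi-likelihood test, while 3 had an unadjusted limma p below 0.05 and DESeq2 called 2, both higher. The log2 fold change was positive for 7 of the 8.

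Of 15 inflammatory cytokine genes, 3 were higher past an adjusted p of 0.05 (3.24% of all genes tested were): il11b, il11a and nfkbiab. The cytokine gene il11b had 60.5 and 53.4 CPM in csf1rDM cells, against 9.89 and 6.55 CPM in control cells (2.81 ± 0.36, adjusted p = 0.0106), and il11a 8.9 and 9.45 CPM in csf1rDM cells, against 3.7 and 4.15 CPM in control cells (1.17 ± 0.25, adjusted p = 0.045). The inhibitor gene nfkbiab of the NF-kB pathway had 288 and 328 CPM in csf1rDM cells, against 231 and 173 CPM in control cells (0.77 ± 0.17, adjusted p = 0.0466). The better known cytokine gene il1b did not pass, at 25.6 and 68.8 CPM in csf1rDM cells and 24.6 and 9.79 CPM in control cells, with csf1rDM replicate 3 alone high. Each leave-out of 1 library kept at most 1 of the 3 calls. Of 16 interferon response genes only dhx58, an RNA sensor gene, passed by limma (3.24% of all genes tested were higher). It stood at 162 and 131 CPM in csf1rDM cells, against 64.8 and 53 CPM in control cells (1.45 ± 0.17, adjusted p = 0.00798), a call lost without control replicate 2. Of the 16, 10 had an unadjusted limma p below 0.05, and DESeq2 called 5, all higher. The log2 fold change was positive for 13 and negative for 3, with a median of 0.48.

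Genes that respond to stress and to cell dissociation moved both ways. Chaperone genes hsp90aa1.1 (154 and 226 CPM in csf1rDM cells, against 78.5 and 62.6 CPM in control cells, adjusted p = 0.0149) and hspa5 (1615 and 2162 CPM in csf1rDM cells, against 998 and 684 CPM in control cells, adjusted p = 0.03) and the AP-1 gene fosl1a were higher. The immediate early genes nr4a1 (179 and 105 CPM in csf1rDM cells, against 346 and 405 CPM in control cells, adjusted p = 0.0388) and fosab were lower. The other 20 of 25 members did not pass an adjusted p of 0.05, which 6.51% of all genes tested passed, and the median was -0.01. Their part in the other differences was not tested. No call of the list was kept without csf1rDM replicate 3 or without either control library.

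Of 19 fibroblast genes, 6 were lower past an adjusted p of 0.05 (3.27% of all genes tested were), with a median of -0.49. They were col1a1a, col1a1b, col1a2, col5a1, sparc and lum. The type I collagen gene col1a1a had 1461 and 526 CPM in csf1rDM cells, against 5652 and 4940 CPM in control cells (-2.44 ± 0.43, adjusted p = 0.0264), and csf1rDM replicate 3 was the lowest. The other chains moved alike, with 1635 and 650.1 CPM for col1a1b in csf1rDM cells, against 6134 and 5446 CPM in control cells, and 1317 and 461 CPM in csf1rDM cells, against 4513 and 4102 CPM in control cells for col1a2. Osteonectin gene sparc, whose product binds collagen, had 238 and 139 CPM in csf1rDM cells, against 777 and 696 CPM in control cells (-1.86 ± 0.26, adjusted p = 0.0135).

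Among the other members, the receptor gene pdgfra had 17.5 and 35.8 CPM in csf1rDM cells, against 67.5 and 44.1 CPM in control cells (adjusted p = 0.141), and dcn, which encodes decorin, had 39.4 and 70.8 CPM in csf1rDM cells, against 74.8 and 43.7 CPM in control cells (adjusted p = 0.957). Summed over the list, csf1rDM libraries held 6601 and 3918 CPM, against 20991 and 17865 CPM in control GFP+DsRed- cells, whereas GFP+DsRed+ cells held 9470 and 9088 CPM. None of the 6 calls was kept without control replicate 1 or without control replicate 2, although each kept its sign, and 4 were kept without csf1rDM replicate 3.

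Of 14 osteoblast and osteoclast genes, 2 were lower and 3 higher past an adjusted p of 0.05 (3.27% and 3.24% of all genes tested were). The osteoblast genes sp7, a transcription factor gene, and alpl, which encodes the tissue nonspecific alkaline phosphatase, were lower, with 8.5 and 11.9 CPM for sp7 in csf1rDM cells, against 29.2 and 26.1 CPM in control cells (-1.23 ± 0.22, adjusted p = 0.0286). Levels of alpl were 12.8 and 12.7 CPM in csf1rDM cells and 39.6 and 32.8 CPM in control cells (-1.28 ± 0.27, adjusted p = 0.0392). Besides tnfrsf11b, the genes acp5a and ctsk, which mark osteoclasts and other macrophages, were higher. The acid phosphatase gene acp5a had 12.8 and 21.9 CPM in csf1rDM cells, against 3.45 and 1.15 CPM in control cells (2.64 ± 0.37, adjusted p = 0.0134). The scale and bone collagen gene col10a1a had 66.4 and 7.25 CPM in csf1rDM cells, against 302 and 326 CPM in control cells (adjusted p = 0.0588), with csf1rDM replicate 3 far below replicate 2. Of the 5 calls in the list, 4 were kept without csf1rDM replicate 2, 2 without csf1rDM replicate 3, 2 without control replicate 1 and 1 without control replicate 2.

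The 2 csf1rDM libraries differed most in sterol synthesis. All 24 genes of sterol and fatty acid synthesis had a negative log2 fold change, and for 23 both csf1rDM libraries lay below both control libraries (38.7% of all genes tested did). The median against the control mean was -1.43 in csf1rDM replicate 2 and -4.77 in csf1rDM replicate 3, so the replicates were 3.29 apart on the log2 scale, with 17 of 24 genes more than 2 apart. Summed over the list, csf1rDM replicate 2 held 4175 CPM and csf1rDM replicate 3 held 781 CPM, against 10097 and 11885 CPM in control GFP+DsRed- cells, whereas GFP+DsRed+ cells held 5470 and 4665 CPM.

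The rate-limiting reductase gene hmgcra had 475 CPM in csf1rDM replicate 2 and 50.9 CPM in replicate 3, against 1289 and 1356 CPM in control cells, and its adjusted p was 0.0895. The synthase gene hmgcs1 had 863 and 71.3 CPM in csf1rDM cells, against 1912 and 2312 CPM in control cells, and the squalene epoxidase gene sqlea had 207 and 13.2 CPM in csf1rDM cells, against 405 and 529 CPM in control cells. Only 3 members passed an adjusted p of 0.05, all lower (3.27% of all genes tested were). Among them were the desaturase gene scd (5.55 and 0.75 CPM in csf1rDM cells, against 57.2 and 65.2 CPM in control cells, -4.06 ± 0.55, adjusted p = 0.0127) and the sterol sensor gene insig1 (29.8 and 6.0 CPM in csf1rDM cells, against 139 and 202 CPM in control cells, adjusted p = 0.0304). The receptor gene ldlra itself, which sterols also control, had 254 and 71.3 CPM in csf1rDM cells and 289 and 309 CPM in control cells. The elongase gene elovl6 showed no such gap, with 16.2 and 20.9 CPM in csf1rDM cells and 29.9 and 27.2 CPM in control cells. Leaving out 1 library gave 22 lower members without csf1rDM replicate 2, 14 without csf1rDM replicate 3 and none without either control library. A fit with 1 csf1rDM library has no spread of its own for that group and assumes that of the other libraries.

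**Figure D4:**
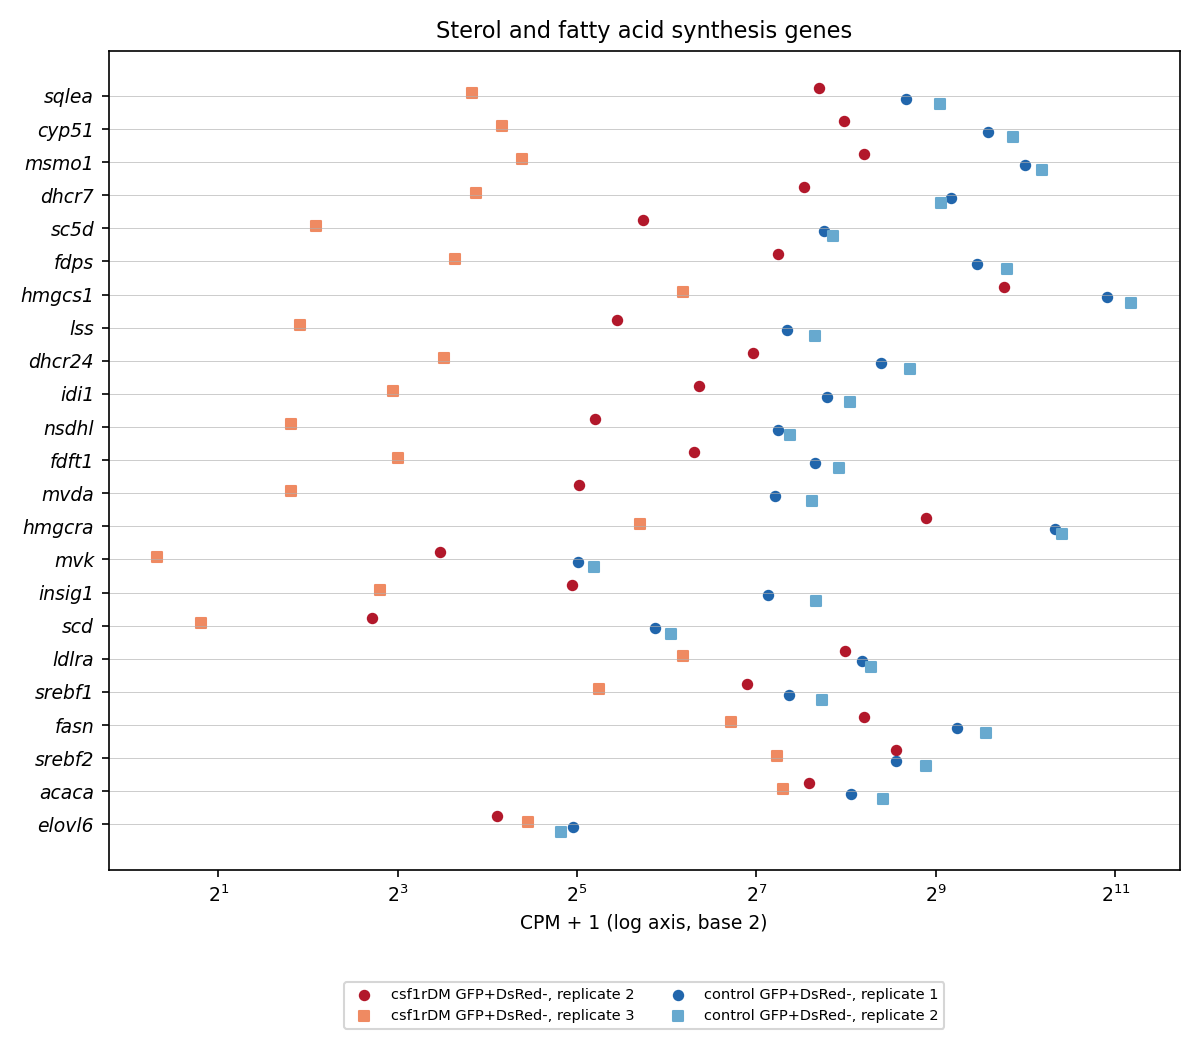
Level of 23 of the 24 genes of sterol and fatty acid synthesis (rows, in order of the gap between the csf1rDM replicates) in the 4 GFP+DsRed- libraries, as CPM + 1 on a log axis of base 2. Orange squares (csf1rDM replicate 3) lie furthest left in 22 rows, red circles (csf1rDM replicate 2) between them and the control points in most rows.

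Over all 19555 genes, 108 were more than 2 on the log2 scale higher in csf1rDM replicate 2 than in replicate 3 and 74 were higher in replicate 3, whereas the control replicates differed by that much for 11 and 30 genes. With 1 library each, these differences have no test. Bile acid and steroid genes led those higher in replicate 2. The sterol 12-hydroxylase gene cyp8b2 had 297 CPM in csf1rDM replicate 2 and 5.75 CPM in replicate 3, against 297 and 423 CPM in control cells. Its paralog cyp8b3 had 375 and 8.7 CPM in csf1rDM cells, against 358 and 535 CPM in control cells, and the sulfotransferase gene sult2st3 had 1300 and 34.3 CPM in csf1rDM cells, against 1647 and 2314 CPM in control cells. For these 3 genes csf1rDM replicate 2 was near the control level and replicate 3 far below it.

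The rate-limiting bile acid gene cyp7a1 had 75.3 and 2.0 CPM in csf1rDM cells, against 629.5 and 314 CPM in control cells, so that both csf1rDM libraries were low and replicate 3 was close to 0. The sterol isomerase gene ebp had 109 and 4.25 CPM in csf1rDM cells, against 448 and 549.7 CPM in control cells, and the ectonucleotidase gene entpd8 had 422 and 17.6 CPM in csf1rDM cells, against 257 and 403 CPM in control cells. The perforin-like gene mpeg1.3, a paralog of mpeg1.1 that may share reads with it, had 41.6 and 1.25 CPM in csf1rDM cells, against 2.75 and 17.2 CPM in control cells. The muscle gene igfn1.1 (60.5 and 1.25 CPM in csf1rDM cells, against 43.6 and 50.2 CPM in control cells) and the clones CR759879.1 and LO017718.1 completed the 10 genes highest in replicate 2.

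Of the 10 genes highest in csf1rDM replicate 3, 7 carry only clone or locus names, led by si:ch211-153b23.3 with 2.8 and 511 CPM in csf1rDM cells, against 0.55 and 2.05 CPM in control cells. The itaconate synthesis gene irg1l, an inducible immune response gene, had 3.2 CPM in csf1rDM replicate 2 and 292 CPM in replicate 3, against 0.999 and 6.05 CPM in control cells. The cytokine gene il19l had 1.2 and 31.6 CPM in csf1rDM cells, against 0.65 and 0.30 CPM in control cells. The giant muscle protein gene ttn.2 had 3.2 and 152 CPM in csf1rDM cells, against 10.9 and 4.9 CPM in control cells. Just below these stood the neutrophil peroxidase gene mpx (1.4 and 30.3 CPM in csf1rDM cells, against 0.999 and 0.50 CPM in control cells) and the nitric oxide synthase gene nos2a (69.4 and 800.0 CPM in csf1rDM cells, against 221 and 237 CPM in control cells), named after their values were seen. For irg1l, il19l, ttn.2 and mpx, replicate 3 alone was high, and replicate 2 was near the control level.

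Lists of other cell types that a skin sort could hold were examined as well. Of 14 B cell genes listed, 11 were in the table and 5 reached 1 CPM in 2 or more of the 4 libraries. These 5 summed to 118 and 95 CPM in csf1rDM cells, against 19.3 and 6.05 CPM in control cells, with a list median of 1.59. Most of the csf1rDM sum came from ighv1-4, which passed that filter only through the csf1rDM libraries. The sum and the median are therefore no measure of B cells. Of these 5, the immunoglobulin genes ighv1-4 (88.7 and 70.07 CPM in csf1rDM cells, against 0.799 and 0.50 CPM in control cells, adjusted p = 0.000706) and ighz were higher, while the antigen receptor gene cd79a was near the detection limit in both genotypes (1.2 and 1.0 CPM in csf1rDM cells and 1.95 and 0.80 CPM in control cells). Immunoglobulin segments can share reads, so both values are uncertain, and the call of ighz was lost without csf1rDM replicate 2, without control replicate 1 and without control replicate 2. Among 12 T and NK cell genes only the transcription factor gene runx3 passed, lower in csf1rDM cells (191 and 97.9 CPM in csf1rDM cells, against 428 and 466 CPM in control cells, adjusted p = 0.0381), a call lost by edgeR's quasi-likelihood test, without csf1rDM replicate 3 and without either control library. Of 7 neutrophil genes only mmp13a passed by limma, higher in csf1rDM cells, while DESeq2 called 2 higher, and mpx had the values given above. Beside these B cell, T and NK cell and neutrophil calls, 3.24% of all genes tested were higher and 3.27% lower. Of 7 skeletal muscle genes 2 were higher and 1 lower (3.24% and 3.27% of all genes tested were), all under 17 CPM. Of these 3 calls, 1 was kept without csf1rDM replicate 2, 0 without csf1rDM replicate 3, 1 without control replicate 1 and 0 without control replicate 2.

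None of 6 red cell genes, 13 endothelial genes, 6 ionocyte and mucous cell genes, 4 neuron genes and 30 genes of DNA replication and mitosis passed an adjusted p of 0.05 by limma, by edgeR's quasi-likelihood test or by DESeq2. An unadjusted limma p below 0.05 was found for 1 gene in each of these lists other than that of ionocytes and mucous cells, where it was found for 0. The proliferation gene mki67 had 44.7 and 33.5 CPM in csf1rDM cells and 52.6 and 35.1 CPM in control cells, and the replication gene pcna had 28.8 and 26.8 CPM in csf1rDM cells and 40 and 27.9 CPM in control cells. Of 16 engulfment genes, vcam1b, itgb5 and mfge8a were lower past an adjusted p of 0.05 (3.27% of all genes tested were). All 3 had both csf1rDM libraries below both control libraries, as 38.7% of all genes tested did. None was called without either control library. The integrin subunit gene itgb5 had 14.2 and 8.7 CPM in csf1rDM cells, against 42.3 and 41.4 CPM in control cells (-1.67 ± 0.24, adjusted p = 0.0149). Of 10 relatives and ligands of the CSF1 receptor, only kita passed, higher in csf1rDM cells (3.24% of all genes tested were). The ligand genes il34, csf1a and csf1b did not pass (limma adjusted p between 0.191 and 0.724). Levels of il34 were 26 and 16.2 CPM in csf1rDM cells and 15.8 and 12.8 CPM in control cells.

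**Figure D5:**
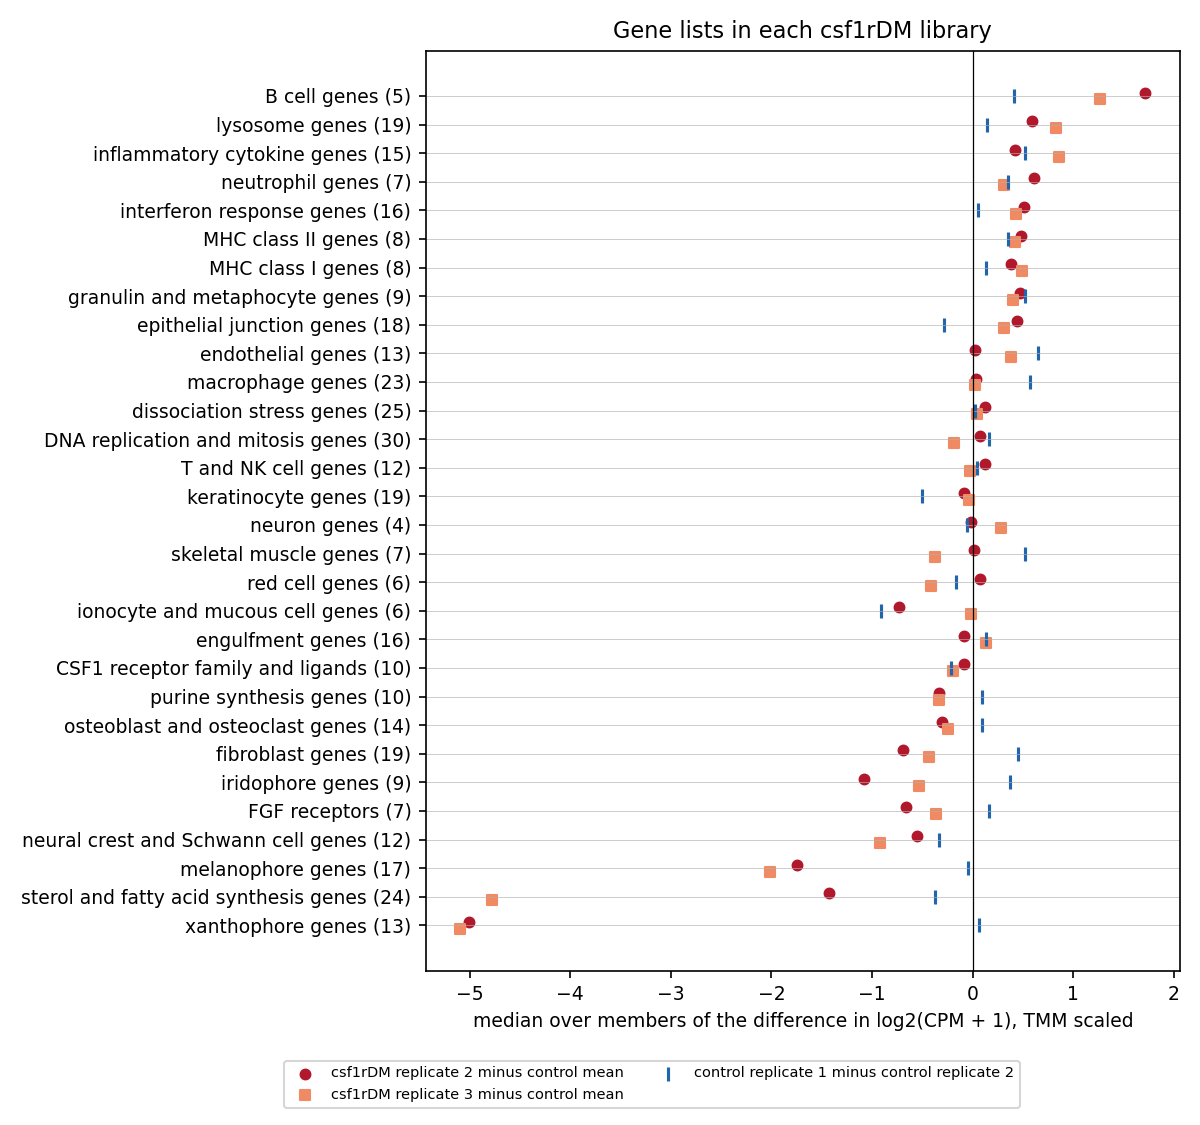
Median difference in log2(CPM + 1) over the members of each gene list (rows, number of members in brackets), for csf1rDM replicate 2 (red) and csf1rDM replicate 3 (orange) against the control GFP+DsRed- mean, with the difference between both control replicates as a blue tick. Xanthophore genes stand near -5 in both csf1rDM libraries, sterol and fatty acid synthesis genes at -1.43 and -4.77.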

How the data were processed

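RNA was sequenced from sorted skin cells in 6 libraries with an Ovation SoLo kit. The authors aligned reads with STAR 2.5.4b to GRCz11 and counted them per gene with HTSeq 0.11.0, per the submitters' processing notes; whether strand was used is not given in the sources used here, so overlapping and antisense genes cannot be separated. The deposited values are a signal per gene, each library scaled to a total near 20000000 and rounded up. Reads were not analysed here. For 99.905% to 99.963% of values the signal was exactly a whole number of reads, rounded up after scaling, which gave the totals in the report. No column was left unused (0).

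Signal was converted to CPM, scaled with TMM factors over all genes of the table (0.922 to 1.13, edgeR 4.0.16) and fitted as log2(CPM + 1) with limma 3.58.1 (R 4.3.3, trend) over all 6 libraries in 3 groups, since they then share 1 estimate of the spread. Genes with 1 CPM in 2 libraries were tested (20382), with Benjamini-Hochberg adjustment over all of them. Levels printed, and statements that both csf1rDM libraries lay on one side of both control libraries, use unscaled CPM. Log2 fold changes carry the SE and the TMM scaling. The 1 added to CPM before the logarithm understates changes of low genes, and a log2 fold change is no bound where a group had no read. Folds given as at least a value use a floor of 3 reads in the shallower library of the group without reads (0.745 CPM for csf1rDM, 0.287 CPM for control). Ratios with 1 to 3 reads have 95% exact binomial intervals. Floors and intervals cover counting error only. An exact permutation test of 2 against 2 libraries cannot go below p = 0.333 (two-sided), so none was used. Replicates differed by more than counting noise (chi-square per degree of freedom 13.4 in csf1rDM and 16.2 in control).

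Genes named were csf1ra, csf1rb, mpeg1.1, mpeg1.2 and ptprc; among genes past the threshold with groups that did not overlap, the 15 of smallest adjusted p in each direction, without clone names and immunoglobulin segments; in each list the members past an adjusted p of 0.05 and then abundant others; and the 10 genes with the largest ratio each way between the csf1rDM libraries among those with 10 CPM in 1 of them. Names given to several identifiers (3460 repeats) were followed by identifier, and lists used the most abundant. Members and lists were chosen with earlier results of these data known. Motifs in promoters and sequences were not used here, and some items are not reported here. Alternatives were edgeR's quasi-likelihood test and DESeq2 1.42.0 on the recovered reads, other scalings, pseudocounts, filters and thresholds, a fit of 4 libraries, thinning to the shallowest library, leaving out the 10 most abundant genes or 1 library, and a replicate block. TMM over tested genes only, and the alternatives for lists other than the pigment lists, were added after seeing the data. Calls of named genes and list members were counted as kept or lost by adjusted p and sign, without the fold threshold. The fits were tested on simulated data. Figures were drawn with matplotlib 3.10.9.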

Additional observations from a re-analysis of the deposited data

How the results depend on the processing

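Of 98 named genes past an adjusted p of 0.05, the direction held under each alternative run. They were taken for that adjusted p in these same libraries, so a kept direction is no independent support. The count of 317 genes (112 higher and 205 lower in csf1rDM cells) was 644 by DESeq2 (299 higher and 345 lower), which shared 311 of the 317, and 447 by edgeR's quasi-likelihood test (185 higher), which shared 295. It was 162 with a pseudocount of 3 (57 higher and 105 lower) and 1147 with a log2 threshold of 1 (536 higher and 611 lower). Leaving out 1 library gave 116 to 537 genes, 33 to 182 higher and 83 to 355 lower, with 6 to 10 lower melanophore and 1 to 3 lower iridophore members. Control replicate 2 gave the lowest counts of genes when left out, and csf1rDM replicate 2 the highest. Of the 98 named calls, 13 were lost without csf1rDM replicate 2, 34 without csf1rDM replicate 3, 55 without control replicate 1, 63 without control replicate 2, 69 under the replicate block, 27 with no filter, 25 in the fit of 4 libraries and 12 by edgeR's test. The block ended 7 of the 15 named higher calls and 0 of the 15 lower ones. The other alternatives kept the count of 317 and its split within 1.5 times. Without composition scaling 26.3% of 334 genes were higher, with median-of-ratios factors 39.7% of 320, against 35.3% in the report, and the median log2 fold change over all genes was -0.18 and 0.01, against -0.04. The labels do not say whether libraries of 1 replicate number shared more than the number. Correlations of their deviations from the group mean were 0.031 for replicates 2, 0.0213 for replicates 3 and -0.423 for replicates 1. With 2 libraries per group each deviation mirrors that of the other library, so these values cannot settle a pairing. A replicate block in limma's fit left 67 genes (20 higher and 47 lower), 10 lower xanthophore members, 0 lower melanophore members and 1 lower iridophore member. With no melanophore member called under the block, all 10 kept their sign. For mpeg1.1 the log2 fold change was -0.23 to 0.91 and for ptprc -0.44 to 0.058 when 1 library was left out, and neither passed the test. The cause of these shifts was not tested. Depth limits genes under about 0.745 CPM in csf1rDM cells, csf1rb among them.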
